A study of Drosophila melanogaster with 6 samples.

Results

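In testes of *Pof* mutant and wild type males, 10 genes of mitochondrial fusion, fission and the outer mitochondrial membrane were followed. They were chosen by name and are *fzo*, *Marf*, *Opa1* and *Drp1*, the protein import genes *Tom20*, *Tom40*, *tomboy20* and *tomboy40*, and the channel genes *Porin* and *Porin2*. Each of the 10 had 1 probe set that names no other gene, among 13647 such probe sets of 11983 genes. Total RNA of dissected testes, 60 per biological replicate, was hybridised to Affymetrix *Drosophila* arrays. Homozygous mutants (*y1 w67c23; PofD119/PofD119*) and wild type males (*y1 w67c23*), aged 0 to 24 h, gave 3 arrays each. The wild type thus carries the same X chromosome markers as the mutant, and the sources used here do not give the rest of the genotype. POF binds chromosome 4, and the comparison asks how its loss affects transcription in testes. None of the 10 genes lies on chromosome 4. By the gene table of the Release 6 assembly, *Marf* and *Tom40* lie on the X, *Drp1*, *Porin* and *Porin2* on 2L, *Opa1* and *tomboy40* on 2R, *Tom20* on 3L, and *fzo* and *tomboy20* on 3R.

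Spermatids of *Drosophila* are known for the fusion of all their mitochondria. After meiosis the mitochondria of each spermatid gather and fuse into a layered sphere, the Nebenkern, whose derivatives then unfurl and elongate along the growing sperm tail. Several genes of this machinery exist as a general gene and a testis paralog. *fzo* encodes a mitofusin of the male germline and *Marf* the general mitofusin. *tomboy20* and *tomboy40* are testis relatives of the outer membrane import genes *Tom20* and *Tom40*. *Porin2* is a relative of *Porin*, the voltage-dependent anion channel.

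None of the 10 genes passed the test between *Pof* mutant and wild type testes. Each was tested with limma on the log2 scale, with Benjamini-Hochberg adjustment over all 7696 genes whose average over the wild type arrays reached 6, the minimum the paper uses, and all 10 were above it. Over all these genes 4.69% were called at an adjusted p of 0.05, 2.47% higher and 2.22% lower in the mutant. At an unadjusted p under 0.05, 1 of the 10 passed, against 18.5% of all genes. In whole testes, fewer cells of a type and less RNA per cell cannot be told apart. With the constant described next, the mean was lower in the mutant for 5 genes and higher for the other 5, and without it 8 were lower and 2 higher. Values of single arrays below are the deposited RMA log2 values, whereas changes were computed after a constant of -0.017, 0.064 and 0.15 had been added to mutant replicates 1, 2 and 3, which brings each to the mean level of the wild type arrays. The median change of all genes after this step was 0.02. Levels of different genes were not set against each other, since each is read by its own probes.

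**Figure D1:**
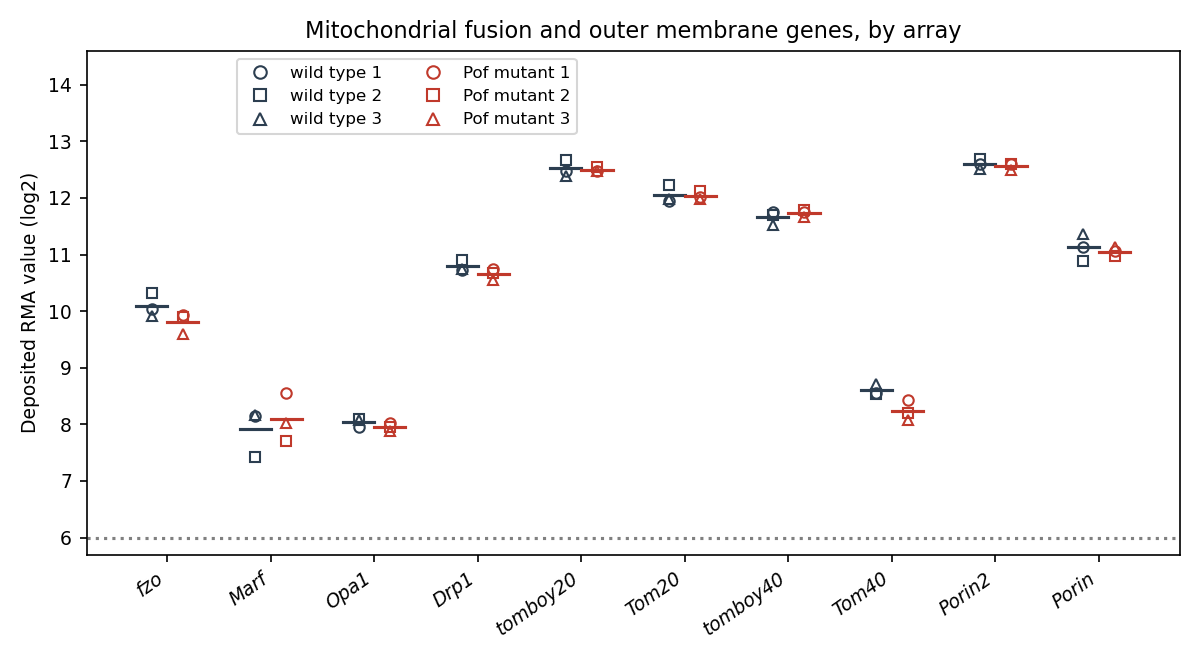
Deposited RMA values (log2) of the 10 genes in the 3 wild type (dark) and 3 *Pof* mutant (red) arrays. Symbols mark the replicate number, bars the mean of a genotype, and the dotted line the minimum of 6. All 60 values lie above 6, and *Tom40* is the gene whose genotypes do not overlap.

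*Tom40*, which encodes the channel of the outer membrane translocase, was the gene with the lowest mutant value relative to wild type. Its values were 8.55, 8.54 and 8.72 in wild type and 8.43, 8.21 and 8.07 in mutant testes. The genotypes did not overlap, with the mutant lower, by a gap that is small beside the spread of the mutant arrays. The change was -0.30 (standard error 0.10, 95% confidence interval -0.54 to -0.06), which equals 81.3% of wild type, and did not pass (limma adjusted p = 0.174, unadjusted p = 0.022). Within replicates 1, 2 and 3 the difference was -0.13, -0.27 and -0.50. *Tom40* was the only one of the 10 genes whose genotypes did not overlap, while 24.6% of all 7696 genes did not overlap, 11.2% with the mutant below.

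*tomboy40*, the testis relative of *Tom40*, had values of 11.74, 11.71 and 11.52 in wild type and 11.75, 11.80 and 11.66 in mutant testes. The groups overlapped. The change was 0.14 (standard error 0.10, 95% confidence interval -0.09 to 0.38, limma adjusted p = 0.512), and the values within replicates were -0.01, 0.15 and 0.28. *Tom20* and *tomboy20*, which encode import receptors of the translocase, differed little between genotypes. *Tom20* had 11.95, 12.22 and 11.98 in wild type and 12.02, 12.11 and 11.98 in the mutant. *tomboy20* had 12.48, 12.67 and 12.39 in wild type and 12.47, 12.54 and 12.48 in the mutant. For both genes the 3 mutant values fell inside the range of the wild type values, and replicate 2 was the highest array of each genotype. Both changes were 0.05 (standard errors 0.11, adjusted p = 0.863 for *Tom20* and 0.867 for *tomboy20* in limma).

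*fzo* had values of 10.04, 10.31 and 9.92 in wild type and 9.93, 9.89 and 9.60 in mutant testes. The highest mutant array lay 0.01 above the lowest wild type array, so the groups overlapped. The change was -0.22 (standard error 0.13, 95% confidence interval -0.53 to 0.09), which equals 86.0% of wild type (limma adjusted p = 0.435). It was negative within each replicate, at -0.12, -0.36 and -0.17. A fit with the replicate number as a block called 11.5% of all genes and 0 of the 10. For *fzo* it gave a 95% confidence interval of -0.425 to -0.012 (limma unadjusted p = 0.042, adjusted p = 0.147). Of all genes kept, 34.7% had a change of larger size. The genes whose values followed those of *fzo* most closely over the 6 arrays were *Rhau*, *CG16896* and *CG9173*, each with a Pearson correlation of 0.99 and of 0.98 over the 4 arrays without replicate 2. A correlation above 0.95 was shared by 126 genes, and the likeness is a description of these 6 arrays.

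*Marf* was the most variable of the 10 genes. Its values were 8.14, 7.42 and 8.16 in wild type and 8.55, 7.70 and 8.03 in mutant testes. Replicate 2 was the lowest array of both genotypes, and averaged 0.66 below the other 4 arrays. The replicates of a genotype had a standard deviation of 0.43, and only 6.70% of all genes had a larger one. The change was 0.25 (standard error 0.27, 95% confidence interval -0.40 to 0.90, limma adjusted p = 0.697). Values between 75.9% and 186% of the wild type level thus lay inside the interval. Within replicates 1, 2 and 3 the difference was 0.398, 0.339 and 0.015, and blocking on the replicate number gave an interval of -0.01 to 0.51 (adjusted p = 0.171).

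The inner membrane fusion gene *Opa1* and the fission gene *Drp1* differed little between genotypes. *Opa1*, which encodes a dynamin-like GTPase of the inner membrane, had 7.96, 8.10 and 8.08 in wild type and 8.03, 7.95 and 7.89 in the mutant. Its change was -0.03 (standard error 0.08, 95% confidence interval -0.23 to 0.18, limma adjusted p = 0.906). *Drp1*, the GTPase that divides mitochondria, had 10.72, 10.91 and 10.74 in wild type and 10.74, 10.67 and 10.56 in the mutant. Its change was -0.07 (standard error 0.09, 95% confidence interval -0.28 to 0.15, adjusted p = 0.754). The standard deviation between replicates was 0.08 for *Opa1* and 0.10 for *Drp1*, against a median of 0.17 over all genes, so both were measured with less spread than most genes.

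*Porin*, which encodes the anion channel of the outer membrane, had 11.14, 10.89 and 11.37 in wild type and 11.05, 10.97 and 11.13 in mutant testes. All mutant values lay inside the wild type range, and replicate 2 was the lowest array of each genotype, as for *Marf*. The change was -0.01 (standard error 0.15, 95% confidence interval -0.37 to 0.34, limma adjusted p = 0.971). *Porin2* had 12.59, 12.69 and 12.51 in wild type and 12.60, 12.59 and 12.50 in the mutant. Its change was 0.03 (standard error 0.09, 95% confidence interval -0.18 to 0.24, adjusted p = 0.905), and 93.6% of all genes had a larger standard deviation between replicates. *Porin* and *Porin2* are neighbours on 2L in the gene table.

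**Figure D2:**
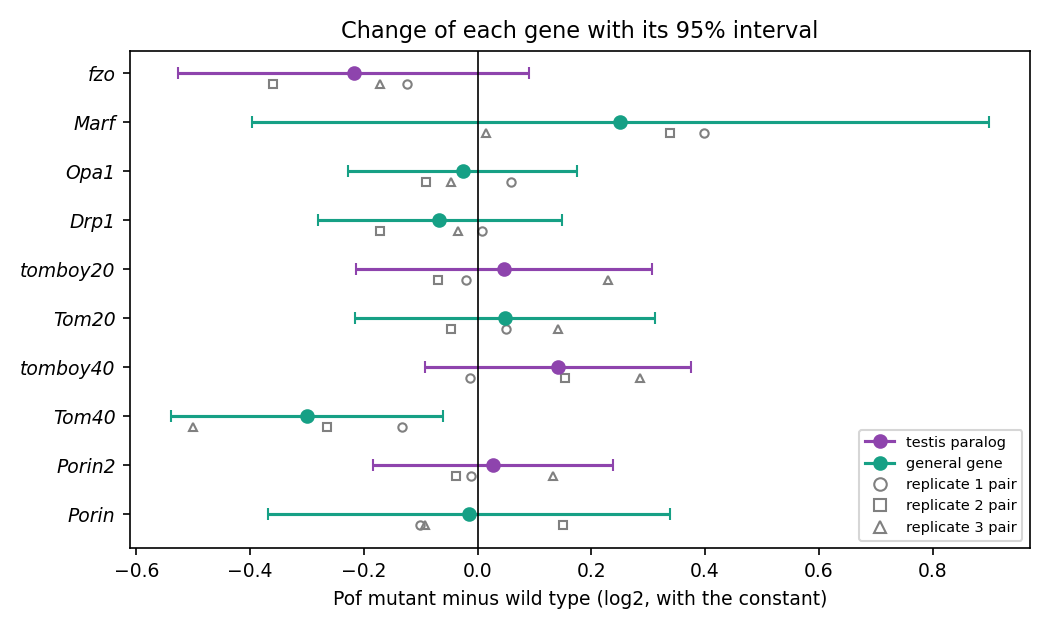
Change of each of the 10 genes, *Pof* mutant minus wild type (log2, with the constant), with its 95% confidence interval from limma. Grey symbols give the difference within each replicate number, and colour separates testis paralogs from general genes. *Tom40* has the only interval that lies wholly below 0, and *Marf* has the widest one.

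The testis paralogs had changes of both signs. The 4 of them (*fzo*, *tomboy20*, *tomboy40* and *Porin2*) had changes between -0.22 and 0.14 with a median of 0.04, and the 6 general genes had changes between -0.30 and 0.25 with a median of -0.02. For the 4 pairs of a testis paralog and its general gene, the difference between both was taken within each array, where the constant cancels out, and compared between genotypes. The contrast of *tomboy40* and *Tom40* was the one in which the genotypes did not overlap. Relative to the wild type mean, *tomboy40* minus *Tom40* was 0.26, 0.53 and 0.53 in the mutant and 0.14, 0.11 and -0.25 in wild type. The mutant was thus higher by 0.44 (standard error 0.16), with 0.12, 0.42 and 0.79 within the replicates (two-sided exact permutation test, p = 0.10, and 0.40 after adjustment over the 4 pairs; with 3 arrays a genotype no smaller p than 0.10 can be reached).

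For *fzo* minus *Marf* the mutant lay lower, at -0.47 (standard error 0.43), with -0.81, 0.01 and -0.61 in the mutant and -0.28, 0.71 and -0.42 in wild type. The genotypes overlapped (exact permutation test, two-sided, p = 0.40, adjusted 0.80). The highest array of each genotype was replicate 2, in which *Marf* was low. With the constant, *fzo* averaged over both replicate 2 arrays was 0.23 above the other arrays. As deposited, its mutant replicate 2 (9.89) lay below mutant replicate 1 (9.93). Within replicates the mutant was lower in all 3, at -0.52, -0.70 and -0.18. For *tomboy20* minus *Tom20* the difference between genotypes was -0.002 (standard error 0.04) with every array within 0.07 of the wild type mean, and for *Porin2* minus *Porin* it was 0.04 (standard error 0.21), with exact permutation p = 1 and 0.90.

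**Figure D3:**
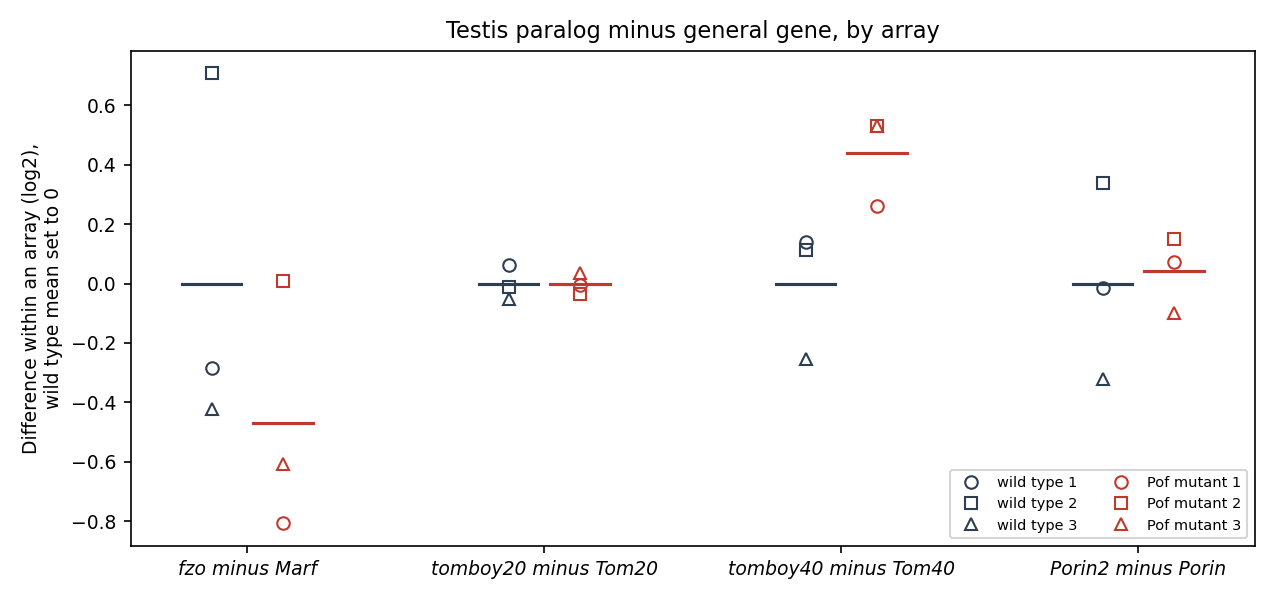
Testis paralog minus general gene within each array (log2), with the wild type mean of each pair set to 0, in wild type (dark) and *Pof* mutant (red) testes. Bars are genotype means and symbols the replicate number. Mutant arrays lie above all wild type arrays for *tomboy40* minus *Tom40*, and the genotypes overlap in the other pairs.

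Other genes of mitochondrial shape and import were measured with the same fit. Of 10 kept genes of fusion, fission and mitochondrial shape, none passed in limma (1 at an unadjusted p under 0.05), and their median change was 0.05. The lowest values were those of *Miro*, a GTPase of mitochondrial transport (-0.22), and *clu*, whose loss makes mitochondria cluster (-0.08), and the highest those of *milt*, an adaptor of mitochondrial transport (0.23), and *Mul1*, a mitochondrial ubiquitin ligase (0.22). *Pink1*, the kinase that guards mitochondrial quality, had a change of 0.11 (adjusted p = 0.641). Of 9 kept genes of the outer membrane and its translocase, 1 fell and 8 did not pass, against 2.22% of all genes that were lower and 4.69% called, and the median was 0.07. At an unadjusted p under 0.05 there were 4 of the 9, and 6 of the 9 did not overlap between genotypes, against 18.5% and 24.6% of all genes. The gene that fell was *Debcl*, a member of the Bcl-2 family, which acts at the outer membrane in cell death. It had 8.48, 8.62 and 8.54 in wild type and 7.36, 7.06 and 6.76 in mutant testes. All mutant arrays thus lay more than 1 log2 unit below the wild type arrays. The change was -1.42 (standard error 0.13, adjusted p = 0.0022 in limma), which equals 37.3% of wild type.

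The other subunits of the outer membrane translocase did not pass. *Tom70*, an import receptor, had 11.77, 11.95 and 11.71 in wild type and 11.58, 11.55 and 11.44 in the mutant, so that all mutant arrays lay lower, with a change of -0.22 (adjusted p = 0.296). *mge*, the Tom22 subunit, and *Tom7* had changes of 0.05 and 0.10. The highest changes of this list were 0.70 for the hexokinase gene *Hex-A* (adjusted p = 0.131) and 0.36 for *whd*, the carnitine palmitoyltransferase (adjusted p = 0.135). Of 16 kept genes of import through the inner membrane, none passed in limma, with a median of 0.08. At an unadjusted p under 0.05 there were 4 of the 16, against 18.5% of all genes. *Tim17a1*, a translocase subunit (0.36, adjusted p = 0.143) and *Roe1*, a nucleotide exchange factor of the matrix chaperone (0.35, adjusted p = 0.066), had the highest values, and *Hsc70-5*, that chaperone (-0.25, adjusted p = 0.225), and *ttm50*, the Tim50 subunit (-0.09), the lowest. In the fit with the block, which called 11.5% of all genes, *Roe1* was higher (adjusted p = 0.036).

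Of 9 kept genes linked with the mitochondrial derivatives of spermatids, 1 fell and 8 did not pass, against 2.22% of all genes that were lower and 4.69% called. At an unadjusted p under 0.05 there were 2 of the 9, and 5 of the 9 did not overlap, against 18.5% and 24.6% of all genes. The gene that fell was *dj*, whose protein lies along the sperm tail (-0.68, standard error 0.08, limma adjusted p = 0.0063). Without wild type replicate 1 the change was -0.67 and no longer passed (adjusted p = 0.058), in a fit that called 137 genes in all against 361. *bb8*, which encodes a glutamate dehydrogenase of the testis, had 0.12, *ttm3* had 0.27, *milt* 0.23 and *emei* -0.26, none past the test. The median change of this list was 0.04, against 0.02 over all genes.

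**Figure D4:**
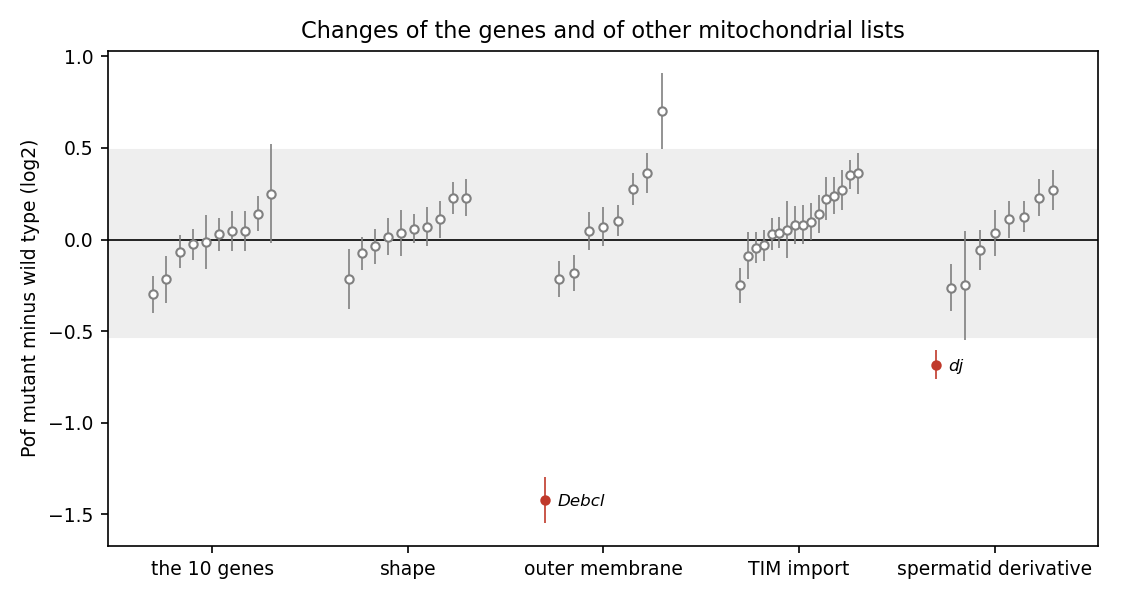
Change of each kept gene (log2, *Pof* mutant minus wild type) with its standard error, for the 10 genes and for the lists of mitochondrial shape, outer membrane, inner membrane import and spermatid derivative genes. The grey band spans the 5th to 95th percentile of all 7696 genes (-0.53 to 0.49). Filled red points passed limma and are *Debcl* and *dj*, and none of the 10 genes is among them.

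The arrays differed in ways that the genotype does not explain. Replicate 2 of both genotypes separated from the rest on a first principal component with 58.9% of the variance. Of the tissue markers, 6 of 6 spermatid genes and 7 of 8 primary spermatocyte genes lay above 6 in wild type. So did 1 of 4 germline stem cell and spermatogonium genes (*aub*, with *vas*, *nanos* and *bam* below) and 1 of 4 measured cyst and hub cell genes. *aub* was lower in the mutant (-0.57, limma adjusted p = 0.0489, and 0.0502 with no minimum). With no minimum, *vas*, *nanos* and *bam* had changes of 0.19, -0.01 and -0.20, none past the test. The summed level of the 4 germline genes was 7.81 to 8.01 in the mutant and 8.25 to 8.45 in wild type. The sum is taken on the linear scale and is mostly *aub*, at 7.78 in wild type and 7.15 in the mutant. In wild type *vas*, *nanos* and *bam* were at 4.45, 5.34 and 5.30. The 6 accessory gland genes were abundant, with a summed log2 level between 16.18 and 16.45 on all arrays, so that the RNA was not of testis alone. The summed level of 3 fat body genes was 7.37 to 7.77 in the mutant and 8.98 to 9.91 in wild type, that of 4 muscle genes 11.16 to 11.52 and 11.04 to 12.06, and that of the spermatid genes 15.66 to 15.70 and 15.77 to 15.83. These sums are of deposited values, without the constant. In limma all 3 fat body genes were lower in the mutant, against 2.22% of all genes. *Lsp2*, *Fbp1* and *Fbp2* had changes of -1.56, -1.60 and -2.02 (limma adjusted p = 0.025, 0.033 and 0.011). None of the 4 muscle genes passed. Of the 6 spermatid genes, *Mst84Db* (-0.47, limma adjusted p = 0.038) and *dj* fell, and the other 4 had a higher mean with the constant. All of these 4 but *Mst98Ca* (13.88 in the mutant and 13.89 in wild type) were also higher as deposited. The median change over the list was 0.08. In wild type, the muscle genes were at 11.37, 11.04 and 12.06 in replicates 1, 2 and 3. In the mutant they were at 11.49, 11.16 and 11.52, and *Porin* has this order in both genotypes. The first principal component also placed replicate 1 between 3 and 2 in both genotypes. Its scores for replicates 1, 2 and 3 were -16.01, 34.04 and -27.09 in wild type and -6.59, 32.08 and -16.43 in the mutant. The order is thus not particular to muscle genes and *Porin*. The part of other tissues in the values of the 10 genes was not tested. *Pof* itself had a change of -2.52 (limma adjusted p = 1.5e-04) and was lower in the mutant within each replicate, at -2.62, -2.50 and -2.45. Whether its probes lie inside the mutated part of the gene is not known here.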

How the data were processed

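The testis RNA of 6 arrays was measured on Affymetrix *Drosophila* chips (version 2). The authors made the deposited log2 values with RMA (version not given in the sources used here), which subtracts background, brings all arrays to 1 distribution and summarises each probe set. A shift shared by most genes would thus be removed, and the changes of weak genes can come out too small. The 18952 deposited probe sets had been neither filtered nor shifted. Of these, 13647 named a single gene in the table of the array, 402 several and 4903 none, and only the first were used. As in the paper, low probe sets were left out (average of the wild type arrays under 6) and 8028 remained. Those of a gene were averaged, giving 7696 genes, and each mutant array was shifted by 1 constant.

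Genes were tested with limma 3.58.1 in R 4.3.3 (lmFit and eBayes), with Benjamini-Hochberg adjustment and a threshold of 0.05, without the replicate number. Arrays of the same number deviated together from their genotype means (correlation over genes 0.40, 0.88 and 0.72). The deviations within a genotype cancel out, so the deviation shared by both replicate 2 arrays also raises the values for replicates 1 and 3. Whether replicates 1 and 3 are paired was not tested. The differences within a replicate and the fit with the block take the numbers as pairs. No source names a shared day. The limma fit was tested on simulated data with independent noise on each array, which hold no deviation shared by arrays of the same number. All 10 genes are named, and of other lists those past the test and the highest and lowest 2; *Pink1*, *mge*, *Tom7* and *bb8* were added after their values were seen. The 10 genes and the lists were chosen with earlier results of these data known. List members without a probe set of their own, such as *nmd*, *park*, *rho-7* and *Tim10*, were not analysed here, nor were *Sam50*, *Mtx1* and *Mtx2*, whose symbols were not matched in the gene table. Alternatives were other minimums, constants, probe set choices, limma options, the replicate block and leaving out arrays. The number of arrays limits the precision. No sequences were used here, and coordinates only to order the genes of 2L around *Porin*. Python 3.11.15 with matplotlib 3.10.9 drew the figures.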

Additional observations from a re-analysis of the deposited data

How the results depend on the processing

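Under none of the 16 alternatives did any of the 10 genes pass, and *fzo*, *Marf*, *Tom40* and *tomboy40* kept their direction in all of them. *Tom40* ranged from -0.36 to -0.25 (adjusted p between 0.112 and 0.392) and *fzo* from -0.31 to -0.10, while *Marf* ranged from 0.02 to 0.45. Without the constant, or with it set on linear values, 8 of the 10 genes were lower and 2 higher, against 5 and 5. With 1 array left out, between 3 (without wild type replicate 2) and 6 were lower. The signs of the smaller changes depend on the scaling: *Tom20*, *tomboy20* and *Porin2* were at -0.017, -0.018 and -0.037 without the constant and at -0.006, -0.007 and -0.026 where the constant was set on linear values. Without both replicate 2 arrays, *Opa1* was at 0.015 and *tomboy20* minus *Tom20* at 0.009. With 1 array left out, *Opa1* ranged from -0.070 to 0.012, *Drp1* from -0.099 to 0.005, *Tom20* from -0.001 to 0.145, *tomboy20* from -0.020 to 0.138, *Porin* from -0.126 to 0.098 and *Porin2* from -0.022 to 0.086. In the same way *tomboy20* minus *Tom20* ranged from -0.028 to 0.031, *Porin2* minus *Porin* from -0.119 to 0.212, *fzo* minus *Marf* from -0.71 to -0.12 and *tomboy40* minus *Tom40* from 0.31 to 0.53. The replicate block left the difference of each pair as it was and changed no call among the 10 genes.

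Over all genes, 885 passed with the replicate block and 137 to 403 with 1 array left out (137 without wild type replicate 1 and 403 without wild type replicate 2), against 361. Without the constant 107 were higher and 168 lower, against 190 and 171. *Roe1*, the 1 inner membrane import gene that passed under any alternative, was higher with a minimum of 7, with limma's trend and robust options and with the replicate block. The count of spermatid derivative genes was 0 to 1 with 1 array left out, and *Debcl* passed under all 16 alternatives (-1.53 to -1.32). The causes of these changes were not tested.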

Other observations

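Next to *Porin2* and *Porin* on 2L lie *CG17139* and *CG17140*, which share 1 probe set and were therefore not in the comparison. Its deposited values were 11.11, 11.31 and 11.00 in wild type and 11.00, 11.07 and 10.93 in *Pof* mutant testes, a change of -0.07 with the constant. The groups overlapped, and which of both genes the signal comes from cannot be told.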
